A study of Mus musculus with 6 samples.

Results

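A group of 10 imprinted growth genes was followed in mouse bone marrow-derived macrophages: Cdkn1c, H19, Igf2, Igf2r, Grb10, Dlk1, Meg3, Peg3, Plagl1 and Cd81. They were taken by name from the deposited table of gene counts, in which all 10 were listed among 18039 genes. The group was selected on measured values, the levels and fold changes between KAT7KO and Ctrl in these same libraries, so its values are given as a description, without p-values. RNA was sequenced in bulk, as paired ends, from marrow cells grown into macrophages for 7 days with M-CSF, the macrophage growth factor, at 20 ng/mL. The 2 genotypes were Ctrl and KAT7KO, with 3 libraries each and no other treatment named. KAT7 (also HBO1) is a histone acetyltransferase of the MYST family. No deleted segment of Kat7, Cre driver, strain, sex or age is named in the labels. The replicates are called biological without mention of separate animals, and p-values then reflect no more than the scatter among 6 libraries. Kat7 RNA itself stood at 73.2, 70.3 and 69.0 CPM (counts scaled to library size) in Ctrl and at 41.4, 42.2 and 38.2 in KAT7KO, a log2 fold change of -0.80 (SE 0.06, adjusted p = 9.63e-07 by edgeR's quasi-likelihood test).

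An imprinted gene is transcribed mainly from the allele inherited from 1 parent, because DNA methylation set in the germ line marks the parental copies of a shared control region. Many such genes set fetal growth. Maternally expressed Cdkn1c, H19, Igf2r and Grb10 restrain growth, whereas paternally expressed Igf2 drives it, and the paternally expressed genes Dlk1, Peg3 and Plagl1 act in fetal growth and in the control of precursor cells. Meg3, a long non-coding RNA, is expressed from the maternal copy of the Dlk1 domain, and Cd81, a tetraspanin gene of the Cdkn1c domain, is imprinted in mouse placenta. In blood, Cdkn1c is known for keeping haematopoietic stem cells out of the cell cycle. The counts did not separate the parental alleles, so imprinting itself was not measured.

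Sequences from RefSeq (build GRCm38.p6) were at hand for promoter windows of 8 of the 10 genes, 13 windows in all, each running from 250 bases before to 50 bases after a gene start. No window was at hand for Cdkn1c or H19. The windows of Peg3 and Meg3 are shown because both genes were low in KAT7KO and both hold a cyclic AMP response element (CRE). Its 8 bases, TGACGTCA, are their own reverse complement and are printed in capitals. Dlk1, Plagl1, Grb10 and Cd81 were also lower in KAT7KO, and their windows do not hold the element. Whether the element bears on the levels was not tested. Peg3 lies on the minus strand at chr7:6730370-6730669 and Meg3 on the plus strand at chr12:109540746-109541045.
Peg3: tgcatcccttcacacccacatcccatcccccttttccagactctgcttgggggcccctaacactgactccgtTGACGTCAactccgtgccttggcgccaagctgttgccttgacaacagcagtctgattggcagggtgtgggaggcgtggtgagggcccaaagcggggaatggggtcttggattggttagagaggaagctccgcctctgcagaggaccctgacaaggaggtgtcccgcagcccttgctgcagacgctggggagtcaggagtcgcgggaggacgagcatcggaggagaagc
Meg3: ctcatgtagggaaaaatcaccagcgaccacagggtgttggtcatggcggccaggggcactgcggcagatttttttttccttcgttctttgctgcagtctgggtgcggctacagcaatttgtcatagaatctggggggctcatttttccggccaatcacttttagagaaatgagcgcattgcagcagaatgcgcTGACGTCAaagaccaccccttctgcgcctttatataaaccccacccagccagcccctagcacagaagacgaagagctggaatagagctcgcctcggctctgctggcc
The element begins 178 bases before the gene start in Peg3 and 57 bases before it in Meg3. It occurs in 1.79% of the 32851 mouse promoter windows of the same length. The letters GGGGCCCC, also their own reverse complement, occur in the Peg3 window and in 1.08% of all windows, at bases apart from the CRE. A TATAAA sequence was found in Meg3 and Cd81 (13.6% of all windows) and the E-box CACGTG in Igf2r and Plagl1 (7.15%). Both strands were searched, and the motifs were chosen after the sequences had been seen. The 13 windows had a median GC content of 61.3% and a median of 13 CpG dinucleotides, against 52.7% and 7 in all windows. H19 RNA also carries the hairpin of miR-675, whose mature arms lie on the minus strand at chr7:142577112-142577133 (5p) and chr7:142577078-142577099 (3p). The seeds, bases 2 to 8 in capitals, differ between the arms.
mmu-miR-675-5p: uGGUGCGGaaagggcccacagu
mmu-miR-675-3p: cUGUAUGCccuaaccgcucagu
The microRNAs themselves were not measured in these libraries.

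The libraries held 19906726 to 20660090 counts, so that 3 counts correspond to 0.145 to 0.151 CPM. Of 12483 genes tested, edgeR called 1652 lower in KAT7KO (13.2%) and 1335 higher (10.7%) at an adjusted p of 0.05. With a trend on gene length removed, the calls were 1523 lower and 2555 higher. Ctrl replicate 1 stood apart from the other Ctrl libraries, with a mean chi-square per gene of 11.5 and 20.2 against them, while the other Ctrl pair gave 3.77 and the KAT7KO pairs 2.68 to 3.47. The cells carried the macrophage markers Cd68 (2620 CPM in Ctrl, 2800 CPM in KAT7KO), Adgre1 (594 and 640 CPM) and Csf1r (527 and 481 CPM), none of them called. Of the 10 macrophage markers 3 were lower, among them Lyz2 (28900 to 18000 CPM, -0.68) and Itgam (172 to 129 CPM, -0.42), and the sum of the 10 was 27800 to 37600 CPM in Ctrl and 22600 to 23400 CPM in KAT7KO.

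Other cell types express several of these imprinted genes, and some of their markers were lower in KAT7KO too. Of 14 stromal markers tested, 8 were lower, where 13.2% of all genes tested were lower. These 14 genes summed to 1330 to 1610 CPM in Ctrl and 1170 to 1190 CPM in KAT7KO, and Col1a1 fell from 305 to 226 CPM (adjusted p = 0.0202, edgeR), a call lost with no filter or with the length trend removed. Of 5 progenitor markers tested, from 11 listed, 3 were lower, beside the same 13.2% of all genes. The 9 progenitor markers counted, tested or not, summed to 48.4 to 52.0 CPM in Ctrl and 35.2 to 38.8 CPM in KAT7KO. The defining genes Kit (0.503 and 0.401 CPM) and Flt3 (0.0326 and 0.0999 CPM) were near 0 in both genotypes. Of 3 endothelial markers tested, from 9 listed, 2 were lower, again beside 13.2% of all genes. These lists are too short for their shares to be read closely. The 7 endothelial markers counted summed to 81.3 to 98.3 CPM in Ctrl and 65.6 to 67.8 CPM in KAT7KO, while Cdh5 was at 0.211 and 0.550 CPM. The part of these cells in the results was not tested. In bulk RNA, fewer cells of a type and less RNA per cell cannot be told apart.

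Cdkn1c (ENSMUSG00000037664), which encodes the cyclin-dependent kinase inhibitor p57, was far lower in KAT7KO than in Ctrl, and by the widest margin among the growth genes with ample counts. It was read 969, 1047 and 1084 times in the Ctrl libraries and 214, 235 and 206 times in the KAT7KO libraries. Scaled to depth, its level was 50.4 ± 3.20 CPM (SD, n = 3) in Ctrl and 10.9 ± 0.664 CPM in KAT7KO, or 21.7% of Ctrl. Every KAT7KO library lay far below every Ctrl library, and the libraries of each genotype lay close together. The log2 fold change was -2.20 (SE 0.08), the 20th lowest of the 12483 genes tested, and it stayed between -2.25 and -2.16 over 15 other ways of processing, among them leaving out each library.

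**Figure D1:**
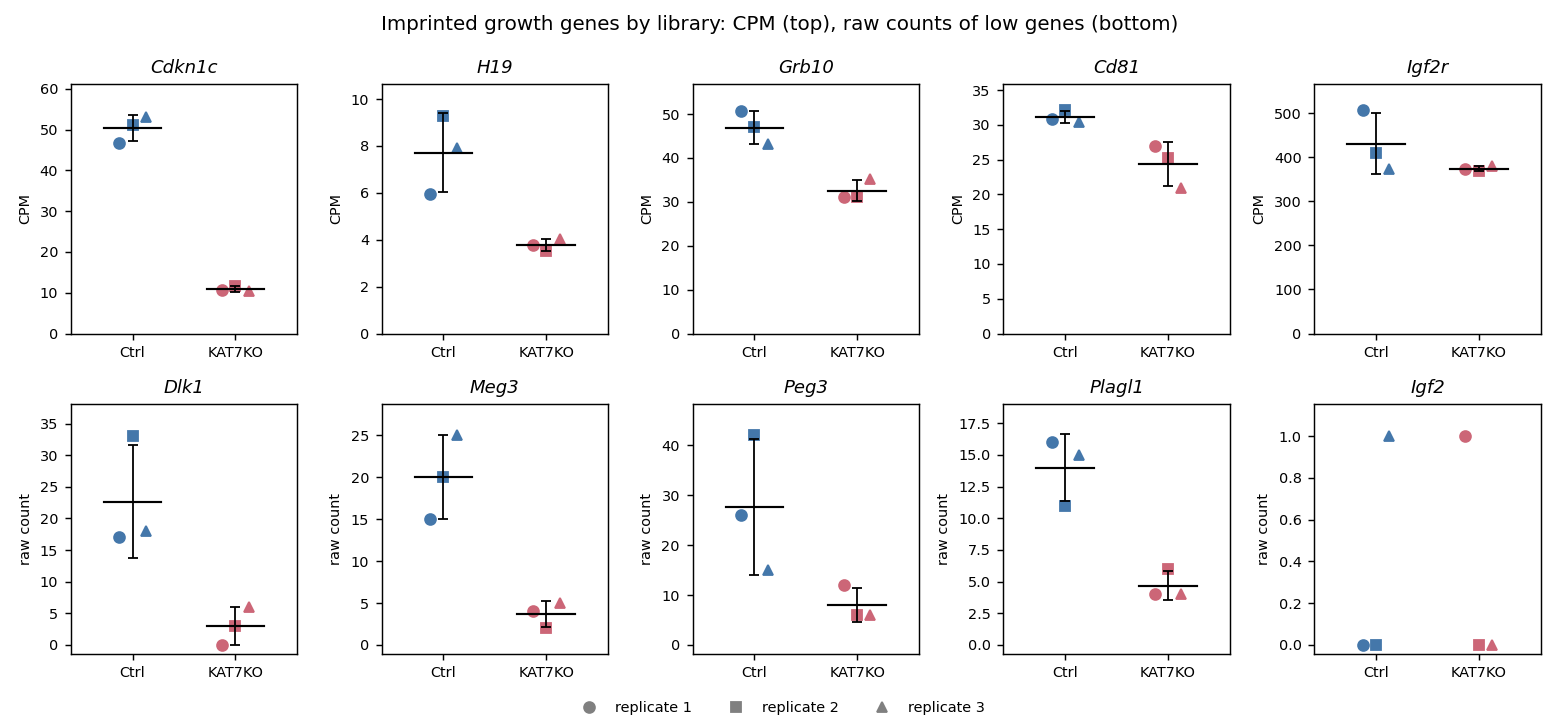
Level of each of the 10 imprinted growth genes in the 3 Ctrl and 3 KAT7KO libraries, as CPM (top row) or raw counts (bottom row); points are libraries, shaped by replicate, and lines and bars are the mean ± SD of 3, drawn for all but Igf2. Cdkn1c stands at 46.8 to 53.1 CPM in Ctrl against 10.4 to 11.7 CPM in KAT7KO, whereas the genotypes overlap for Igf2r and Igf2.

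H19 (ENSMUSG00000000031), a maternally expressed non-coding RNA that restrains growth, stood in KAT7KO at 48.9% of its Ctrl level. Its level was 5.94, 9.28 and 7.93 CPM in Ctrl and 3.76, 3.53 and 4.04 CPM in KAT7KO. The genotypes did not overlap, although the Ctrl libraries spread more widely than the KAT7KO ones. The means were 7.72 ± 1.68 and 3.78 ± 0.257 CPM (SD, n = 3), and the log2 fold change was -1.03 (SE 0.17). Igf2 (ENSMUSG00000048583), the growth factor gene that shares its enhancers with H19, was close to silent, with 1 count over the 3 Ctrl libraries and 1 count over the 3 KAT7KO libraries. No fold change is given for it.

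Igf2r (ENSMUSG00000023830) encodes the receptor that carries IGF2 and mannose 6-phosphate-tagged enzymes to lysosomes, and it did not separate the genotypes. It stood at 508, 410 and 374 CPM in Ctrl and at 374, 369 and 379 CPM in KAT7KO. Ctrl replicate 1 was high, and the other libraries lay near each other. The log2 fold change was -0.20 (SE 0.09), and it rested on single Ctrl libraries. It was -0.07 without Ctrl replicate 1, and -0.29 without Ctrl replicate 3, where edgeR called it lower. With the length trend removed it was -0.09. Airn, the non-coding RNA that overlaps Igf2r on the opposite strand, was counted 148 times in Ctrl and 106 times in KAT7KO. As strand use in counting is not given in the sources used here, reads of such antisense partners cannot be told apart, Kcnq1 and Kcnq1ot1 among them.

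Grb10 (ENSMUSG00000020176), an adaptor that binds the insulin and IGF1 receptors and dampens their signal, stood in KAT7KO at 69.4% of its Ctrl level. Its level was 50.7, 47.0 and 43.1 CPM in Ctrl and 31.2, 31.2 and 35.3 CPM in KAT7KO, with no overlap. The log2 fold change was -0.53 (SE 0.08). Cd81 (ENSMUSG00000037706), a membrane scaffold of the tetraspanin family, showed a smaller difference, from 30.9, 32.1 and 30.4 CPM in Ctrl to 27.0, 25.2 and 20.9 CPM in KAT7KO. The genotypes were again separate, with KAT7KO replicate 3 the lowest, and the log2 fold change was -0.35 (SE 0.09).

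Dlk1, Meg3, Peg3 and Plagl1 were rare in both genotypes and passed the filter on low counts only through the Ctrl libraries. Dlk1 (ENSMUSG00000040856), a membrane-bound relative of the Notch ligands, had 17, 33 and 18 counts in Ctrl and 0, 3 and 6 counts in KAT7KO. Meg3 (ENSMUSG00000021268), whose promoter is printed above, had 15, 20 and 25 counts in Ctrl and 4, 2 and 5 counts in KAT7KO. These 2 genes of the same domain were thus low together, each without overlap of the genotypes. Peg3 (ENSMUSG00000002265), a zinc finger protein, had 26, 42 and 15 counts in Ctrl and 12, 6 and 6 counts in KAT7KO. Plagl1 (ENSMUSG00000019817), a zinc finger transcription factor also called Zac1, had 16, 11 and 15 counts in Ctrl and 4, 6 and 4 counts in KAT7KO. For Peg3 the nearest libraries were 15 counts in Ctrl and 12 counts in KAT7KO, the narrowest gap of these 4 genes. Fitted log2 fold changes were -2.83 (SE 0.60) for Dlk1, -2.37 (SE 0.46) for Meg3, -1.73 (SE 0.45) for Peg3 and -1.52 (SE 0.45) for Plagl1. The Dlk1 count of 0 in KAT7KO replicate 1 allows a level of up to 3 counts there. With so few counts these sizes are uncertain, and leaving out single libraries moved Dlk1 between -3.77 and -2.26 and Peg3 between -2.14 and -1.30.

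Scaled to gene length, as the authors' FPKM, the 10 genes spanned a wide range of levels in Ctrl. Igf2r was highest at 46.7 ± 8.57 FPKM (SD, n = 3), followed by Cdkn1c at 24.8 ± 1.05, Cd81 at 10.9 ± 0.385, Grb10 at 5.20 ± 0.532 and H19 at 2.95 ± 0.599 FPKM. Dlk1, Peg3, Plagl1, Meg3 and Igf2 were all below 0.2 FPKM, and Peg3 and Plagl1, at 0.0996 ± 0.0488 and 0.0878 ± 0.0172 FPKM, did not differ beyond their spread. In KAT7KO, Cdkn1c at 5.33 ± 0.321 FPKM lay below Cd81 at 8.40 ± 1.08 FPKM, the reverse of their order in Ctrl. In 8 of the 10 genes all KAT7KO libraries lay below all Ctrl libraries, an arrangement found in 21.2% of all genes tested. Of the 9 that could be tested, edgeR called 8 lower, where 13.2% of all genes were called lower, but the genes had been chosen by this contrast.

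Most other imprinted genes were not called, and those that were moved both ways. Of 78 names on the other imprinted lists, with Cars under both its names, 46 could be tested. Of these, 9 were lower in KAT7KO (19.6%), 5 higher (10.9%) and 32 not called. Over all genes tested the shares were 13.2% lower and 10.7% higher. The median log2 fold change of the 46 was -0.04, against 0.00 for all genes tested. At least 10 counts in all 6 libraries were held by 41 of them, of which 8 were lower and 5 higher. Whether each listed gene is imprinted in these macrophages was not tested. The lower genes included Kcnq1, a potassium channel subunit gene whose introns hold the start of Kcnq1ot1, and Rian, a non-coding RNA next to Meg3. Kcnq1 had 42, 30 and 40 counts in Ctrl and 15, 7 and 12 counts in KAT7KO, with a log2 fold change of -1.67 (SE 0.33, adjusted p = 0.00234, edgeR). Only 2 of its KAT7KO libraries reached 10 counts, so it passed the filter through the Ctrl libraries. Rian had 84, 129 and 126 counts in Ctrl and 48, 43 and 38 counts in KAT7KO, with a log2 fold change of -1.35 (SE 0.21, adjusted p = 0.000354, edgeR). Both genes had every KAT7KO library below every Ctrl library. The other genes that fell were Tnfrsf23, a decoy receptor for TRAIL (14.8 to 9.12 CPM, -0.70), Cobl, an actin nucleator (1.40 to 0.686 CPM, -1.02), Ndn, which encodes necdin (5.05 to 3.18 CPM, -0.67), Herc3 (-0.46), Jade1 (-0.31), H13 (149 to 123 CPM, -0.28) and Bcl2l1, which encodes the survival protein BCL-XL (173 to 146 CPM, -0.25). The genes that rose were Pon2 and Pon3, lactonases of the paraoxonase family, by 0.36 (161 to 207 CPM) and 0.34 (45.3 to 57.3 CPM), Chrac1 by 0.36, Copg2 by 0.21 and Cars by 0.17. Gnas (-0.02), Ube3a (-0.02) and Impact (-0.04) were not called. The calls of Cars, Jade1, Copg2, Cobl, Herc3 and Ndn were each lost without at least 3 of the 6 libraries in turn, and that of Pon3 without KAT7KO replicate 2. Kcnq1ot1, the antisense RNA that silences Cdkn1c on the paternal copy, was too rare to test, with 9, 13 and 15 counts in Ctrl and 8, 6 and 6 counts in KAT7KO.

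**Figure D2:**
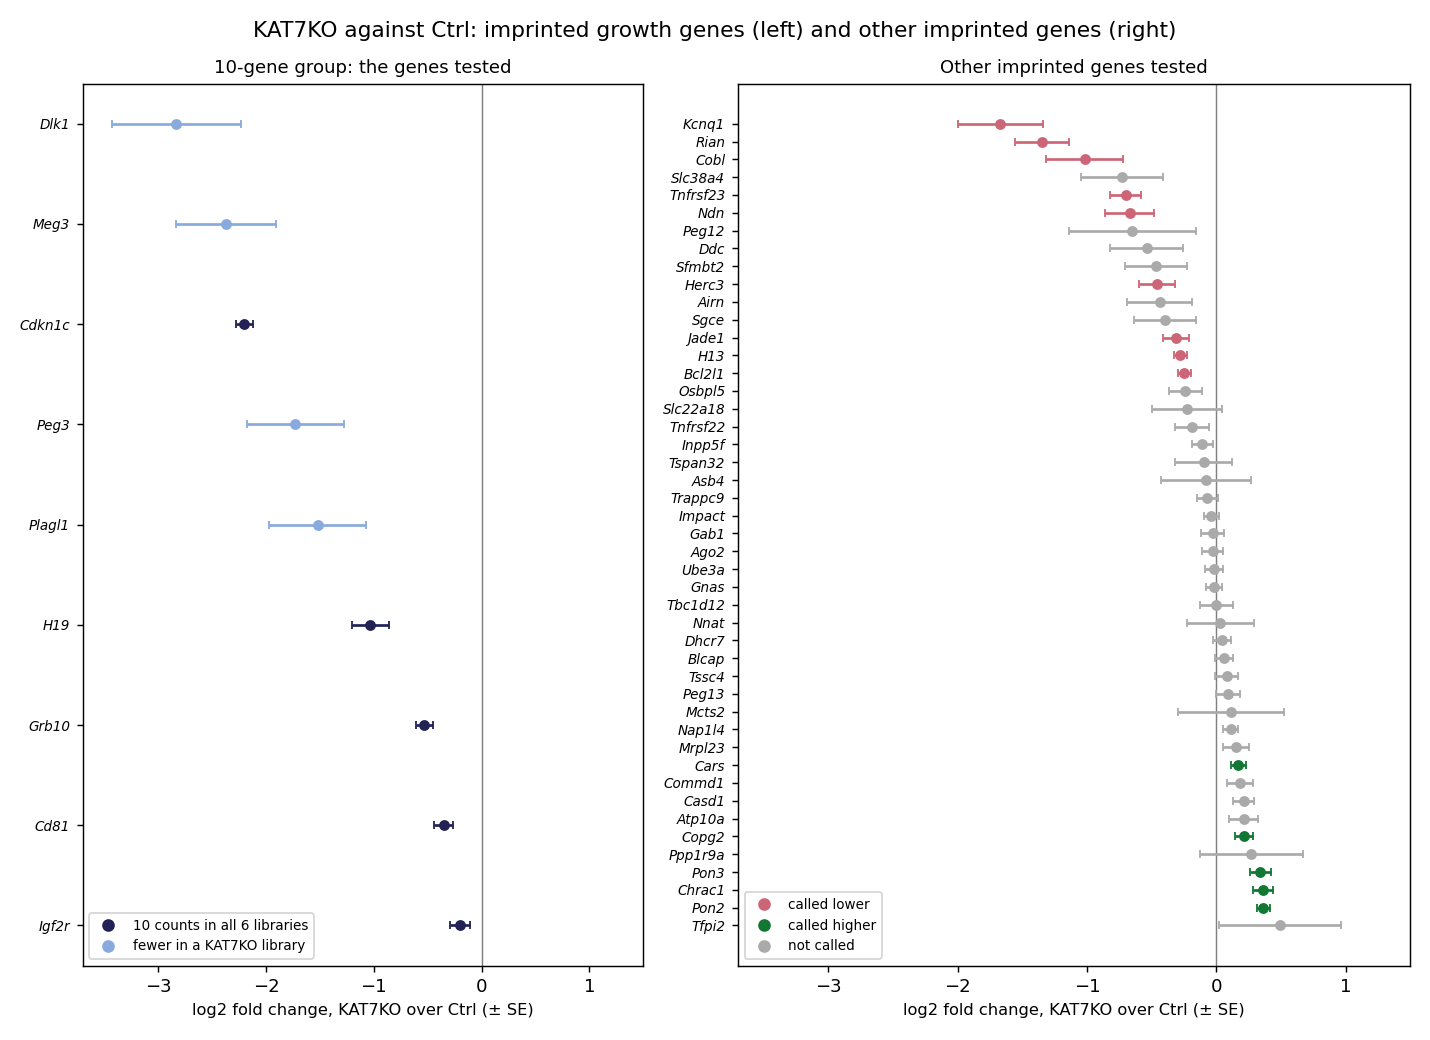
Log2 fold change, KAT7KO over Ctrl, with its SE, for the 9 listed growth genes that were tested (left, paler where a KAT7KO library had under 10 counts) and for the 46 other imprinted genes tested (right, coloured by edgeR call). The left genes, chosen by this contrast, all lie below 0, from -2.83 for Dlk1 to -0.20 for Igf2r. The paler ones passed the filter only through the Ctrl libraries. The right genes scatter around a median of -0.04, from -1.67 for Kcnq1 to 0.49 for Tfpi2, which was not called. Because of that choice, the panels cannot be set against each other.

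Along the chromosome, the neighbours of Cdkn1c went both ways. Among the nearest 10 tested genes on each side in the RefSeq gene order, which include H19 and Cd81, the other 18 comprised 4 lower, 4 higher and 10 not called, with a median log2 fold change of -0.15. Kcnq1, next to Cdkn1c on one flank, was lower, as above. Slc22a18, a transporter gene next to it on the other flank, had 1.59 CPM in Ctrl against 1.35 CPM in KAT7KO and was not called (-0.23, adjusted p = 0.569, edgeR). Tssc4 (0.08) and Nap1l4 (0.11), further out, were not called either. Named after their values were seen, Mrgpre, an orphan receptor gene outside the imprinted list, fell from 25.0 to 13.8 CPM (-0.86), and Tnni2, a troponin subunit gene, rose from 7.29 to 11.2 CPM (0.61). In the Dlk1 domain, Meg3 and Rian follow Dlk1 in order, and all 3 were lower. Dlk1 and Meg3 had been chosen by this contrast and passed the filter only through the Ctrl libraries. Rian is outside the 10 growth genes. Around Grb10, 7 of 20 tested neighbours were lower, the adjacent Cobl among them, and 1 was higher. This was the largest number of lower neighbours around any of the 10 growth genes, by a small margin. Around Dlk1 and around Meg3, 6 of 20 were lower and 1 was higher, each gene counting the other. With H19 and Cd81 counted, 6 were lower and 4 higher around Cdkn1c. Around Peg3 1 was lower and 1 higher, around Plagl1 2 and 3, and around Igf2r 1 and 4. Over all genes tested, 13.2% were lower and 10.7% higher.

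**Figure D3:**
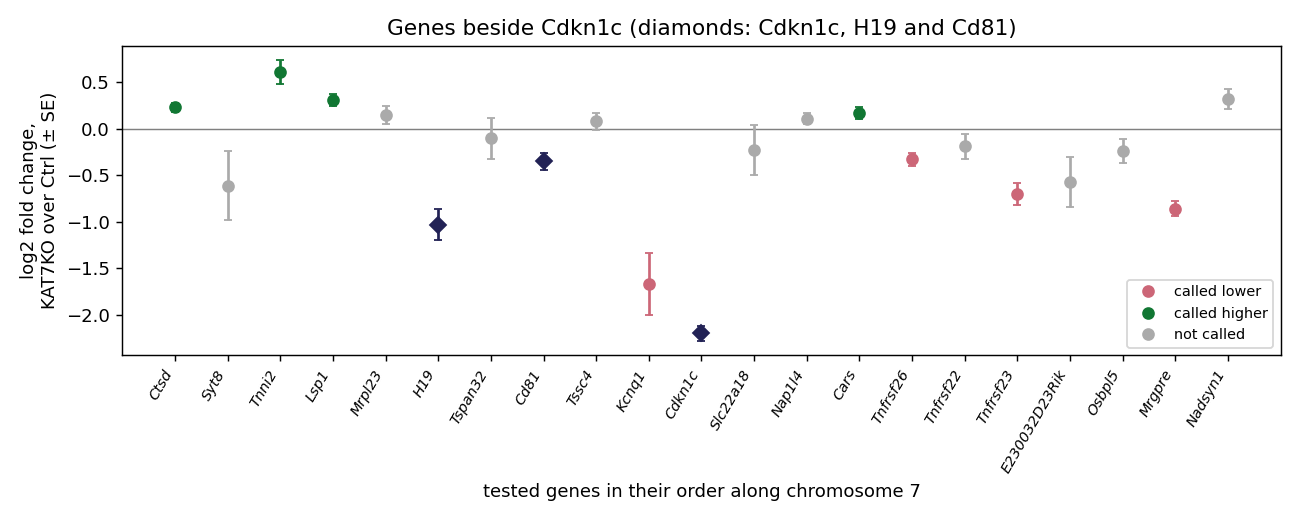
Log2 fold change, KAT7KO over Ctrl, with its SE, for Cdkn1c and the nearest 10 tested genes on each side in RefSeq gene order (GRCm38.p6); diamonds are the listed growth genes and circles the other genes, coloured by edgeR call. Cdkn1c, at -2.20, lies lowest, with Kcnq1 at -1.67 beside it, and genes on both flanks lie at or above 0.

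The other CDK inhibitor genes were lower, higher or not called, where Cdkn1c was low. Of 6 tested, 3 were higher in KAT7KO, 1 was lower and 2 were not called, with a median log2 fold change of 0.32. Over all genes tested, 10.7% were higher and 13.2% lower. Cdkn1a, the p53 target that encodes p21, stood at 58.8, 64.9 and 68.1 CPM in Ctrl and 87.1, 92.2 and 85.6 CPM in KAT7KO (0.47, SE 0.06, adjusted p = 0.000146, edgeR). Cdkn2a, the locus of p16 and p19ARF, stood at 1.64, 2.20 and 2.35 CPM in Ctrl and 5.21, 4.13 and 4.65 CPM in KAT7KO (1.17, adjusted p = 0.000665, edgeR). Both were separate between the genotypes, in the direction opposite to Cdkn1c. Cdkn2d rose from 19.8 to 25.3 CPM (0.35, adjusted p = 0.0082, edgeR), a call lost without KAT7KO replicate 2. Cdkn1b, which encodes p27, the close relative of p57, fell from 22.0 to 18.5 CPM (-0.25, adjusted p = 0.0442, edgeR), a call lost in 9 of 14 alternatives. Cdkn2c (0.29) and Cdkn2b (-0.11) were not called.

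**Figure D4:**
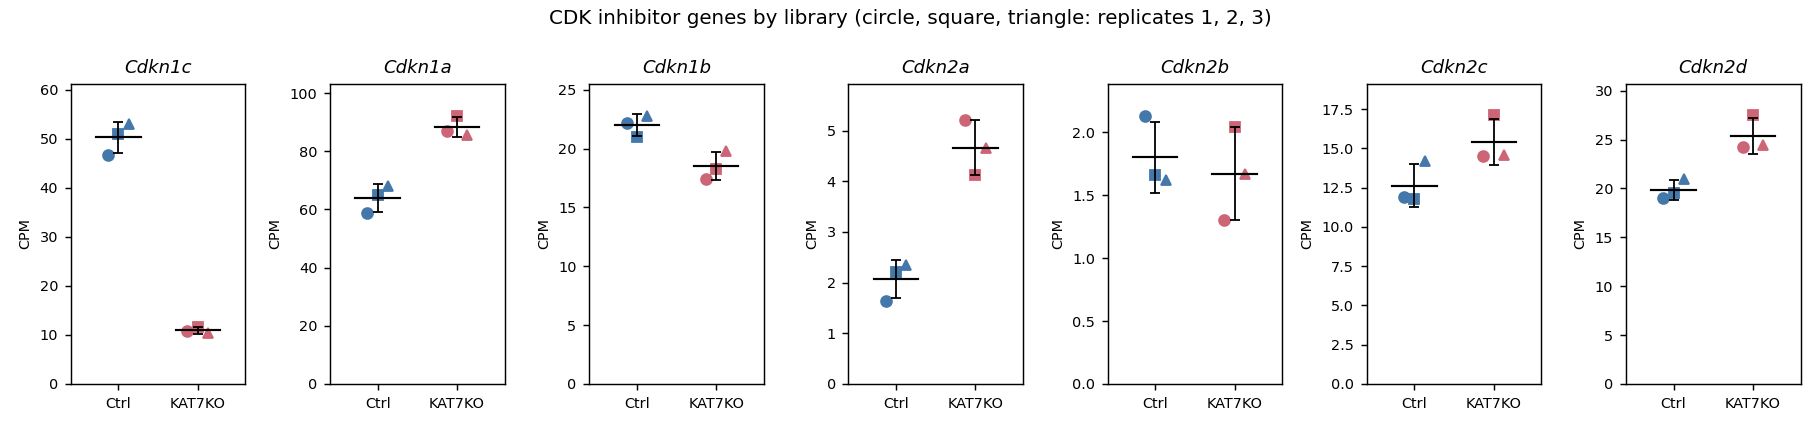
Level in CPM of Cdkn1c and the 6 other CDK inhibitor genes in the 3 Ctrl and 3 KAT7KO libraries; points are libraries, shaped by replicate, and lines and bars are the mean ± SD of 3. Cdkn1c has means of 50.4 CPM in Ctrl and 10.9 CPM in KAT7KO, and Cdkn1a means of 63.9 and 88.3 CPM.

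The insulin-like growth factor system, on which Igf2, Igf2r and Grb10 act, was represented by 20 tested genes. Of these, 5 were lower, 2 higher and 13 not called (median -0.10), where 13.2% of all genes were lower and 10.7% higher. Of the genes for IGF-binding proteins, Igfbp4 fell from 183 to 130 CPM (-0.49, adjusted p = 6.81e-06, edgeR). Igfbp3 fell from 45.0 to 27.5 CPM (-0.71, adjusted p = 9.05e-06, edgeR), while Igfbp6 (-0.21) and Igfbp7 (-0.13) were not called. Igf2bp2, which encodes an RNA-binding protein for Igf2 mRNA, fell from 72.6 to 52.9 CPM (-0.46). M6pr, the other mannose 6-phosphate receptor gene, rose from 357 to 423 CPM (0.24, adjusted p = 0.00192, edgeR). Named here after their values were seen, Igf1 fell from 334 to 275 CPM (-0.28), Pappa, a protease that cleaves IGFBP4, fell from 2.84 to 1.25 CPM (-1.18), and Irs2 rose from 23.5 to 33.0 CPM (0.49). The receptor genes Igf1r (-0.24, adjusted p = 0.191, edgeR) and Insr (-0.14, adjusted p = 0.316, edgeR) did not pass the test. The counts for this list depended on the Ctrl libraries: 8 were lower and 6 higher without Ctrl replicate 1, and 4 were higher without Ctrl replicate 3. With the length trend removed 7 were higher, and the call of Igf1 was lost.

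Factors known to set or keep imprints comprised 28 tested genes, of which edgeR called 5 lower, 0 higher and 23 not at all (median -0.02). The shares over all genes tested were 13.2% lower and 10.7% higher. At an unadjusted p under 0.05 edgeR had 1 higher, Dnmt3l. At the adjusted threshold DESeq2 called 0 higher, limma-voom 1 and edgeR with the length trend removed 4. Dnmt3a, the de novo DNA methyltransferase, fell from 499 to 337 CPM (-0.56, adjusted p = 1.35e-06, edgeR). Uhrf1, which brings DNMT1 to newly copied DNA, fell from 18.1 to 11.1 CPM (-0.71, adjusted p = 0.000926, edgeR). Hells, a chromatin remodeller, fell from 4.79 to 3.07 CPM (-0.64), and Trim28, the co-repressor of imprint-binding zinc finger proteins, from 132 to 114 CPM (-0.21). The fifth gene, Tet3, named because the count is small, fell from 51.8 to 44.0 CPM (-0.24), a call lost in 8 of 14 alternatives. The call of Hells was lost without Ctrl replicate 2 and that of Trim28 without KAT7KO replicate 2 or 3, so that 3 genes of the list were lower without each of these libraries. Without Ctrl replicate 1, 2 were higher, and without Ctrl replicate 3, 1 was. Dnmt1 (0.04), Ctcf (-0.05), Zfp57 (-0.18), Zfp445 (-0.05) and Smchd1 (0.02) were not called. DNA methylation was not measured.

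Receptors of the Notch family and partners of CD81 comprised 10 tested genes, of which 2 were lower and 4 higher (median 0.06). Among all genes tested, 13.2% were lower and 10.7% higher. Of the tetraspanin genes on this list, Cd82 rose from 141 to 195 CPM (0.46, adjusted p = 1.27e-05, edgeR), Cd9 from 746 to 911 CPM (0.29) and Cd63 from 1750 to 2140 CPM (0.29), while Cd151 was not called (0.12, adjusted p = 0.173, edgeR). Ptgfrn, whose protein binds CD9 and CD81, fell from 85.7 to 69.5 CPM (-0.30), and its relative Igsf8, named like Notch1 after the values were seen, rose by 0.15. Notch1 fell from 19.7 to 15.1 CPM (-0.39, adjusted p = 0.0321, edgeR). The Notch1 call held without Ctrl replicate 3 but was lost without each of the other 5 libraries, leaving 1 gene lower. Without KAT7KO replicate 1 or 2 the calls of Cd63 and Igsf8 were lost, leaving 2 higher, and that of Igsf8 was lost in 10 of 14 alternatives. Of the 9 tested genes of KAT7 complexes, Kat7 and Jade1 were lower and Brd1 was higher (0.25, adjusted p = 0.0148, edgeR). The Brd1 call was lost without Ctrl replicate 2, KAT7KO replicate 1 or KAT7KO replicate 2, and that of Jade1 without each library but Ctrl replicate 2.

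The profile of Cdkn1c over the 6 libraries was compared with that of every tested gene at a mean of at least 5 CPM, 9347 genes, by the Euclidean distance between log2 levels centred on the Ctrl mean. With levels centred in this way, the distance mainly reflects how near a gene's change in KAT7KO lies to that of Cdkn1c. Genes that hardly changed are therefore far from it by construction. The nearest was Bex1, at a distance of 0.365 where the median of all genes was 3.78. Bex1 stood at 11.6, 15.2 and 17.8 CPM in Ctrl and 2.91, 3.68 and 2.63 CPM in KAT7KO. Next came Mmp9, a secreted matrix metalloproteinase gene (60.6 to 15.7 CPM), Tenm4 (15.9 to 3.93 CPM), Mgll, which encodes monoacylglycerol lipase (77.9 to 23.5 CPM), and Bex3 (17.0 to 4.75 CPM). Bex1 and Bex3 had their lowest Ctrl level in replicate 1, as Cdkn1c did, whereas Mmp9 and Tenm4 had their highest there.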

How the data were processed

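Raw counts per gene were deposited by the authors for 6 libraries in 1 table, with the authors' FPKM, log2 fold changes and p-values beside them. FastQC, fastp, HISAT2, featureCounts, DESeq2 and build GRCm39 are named, without versions or roles, in the submitters' processing notes. The authors' fold changes and p-values were not used for any value in the text. Libraries were grouped by the titles in the labels.

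Genes passing filterByExpr (minimum count 10) were scaled by TMM and fitted with edgeR 4.0.16 in R 4.3.3 (glmQLFit, robust; glmQLFTest), KAT7KO against Ctrl, with Benjamini-Hochberg adjustment over 12483 genes and a threshold of 0.05. The procedure was tested on simulated data with equal scatter in all libraries. That setting has no library standing apart, as Ctrl replicate 1 does here, and no result in the text rests on it. Levels are CPM after TMM scaling, and SE is the size of the log2 fold change over the square root of F. Likeness to Cdkn1c used log2(CPM + 0.5). The reference was of build GRCm38.p6 and served for gene order and sequences only.

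The members and gene lists were chosen with earlier results of these data known. Named are the 10 genes, every called imprinted gene and CDK inhibitor, up to 4 called genes of each other list by p, Kat7 and the 5 genes nearest to Cdkn1c in profile. Other genes, among them Igf1, Pappa, Irs2, Tet3, Notch1, Igsf8, uncalled genes, neighbours and markers, were named after their values were seen. Marker lists covered macrophages and 9 other cell types. Alternatives were DESeq2 size factors, upper-quartile factors, no filter, a filter of 5 CPM in 3 libraries, DESeq2 1.42.0, limma-voom (limma 3.58.1), the replicate number as a block, a length trend removed (loess, span 0.5), leaving out each library, and FPKM in place of CPM.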

Additional observations from a re-analysis of the deposited data

How the results depend on the processing

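The fold change of Cdkn1c kept its direction and size in all 15 alternatives, and no called gene named in the text changed direction. Genes that were not called could change sign, as Cdkn2b, Insr, Ctcf, Zfp445 and Smchd1 did in 1 or 2 alternatives each. Of the 10 growth genes, 8 were called lower by edgeR, 4 with a filter of 5 CPM, which leaves 5 of them to test, and 5 to 8 without single libraries. DESeq2 called 7, all but Plagl1, and Cdkn1c, H19, Grb10, Dlk1 and Meg3 were called without each library in turn. Of the fits without a library, the one without KAT7KO replicate 3 called the fewest. As the growth genes were chosen by this contrast, their calls are a description and lend no support. Dlk1 and Meg3 had also passed the filter only through the Ctrl libraries. Over all genes tested, edgeR called 13.2% lower. Of the other imprinted genes, 9 were lower, 5 with the 5 CPM filter and 5 to 8 without single libraries (5 without KAT7KO replicate 1), and 5 were higher, 3 with DESeq2 and 2 to 6 without single libraries (3 without Ctrl replicate 2, KAT7KO replicate 1 or KAT7KO replicate 3, and 2 without KAT7KO replicate 2). Over all genes, single libraries left out gave 1071 to 1820 lower and 663 to 1708 higher, and removing the length trend gave 2555 higher, with 37.3% of calls lower in place of 55.3%. The causes were not tested. With the replicate number as a block, edgeR called 1522 genes lower and 1290 higher, 8 of the growth genes lower and 3 other imprinted genes higher. Same-numbered libraries did not deviate together (correlations 0.00557, 0.00221 and 0.0096), so the numbers were not taken as pairing. Depth limits Dlk1, Meg3, Peg3 and Plagl1, at 42 to 83 counts over 3 Ctrl libraries, and Igf2.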

Other observations

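Marker lists of other cell types moved in both directions. Summed neutrophil markers were at 9.62 to 9.99 CPM in Ctrl against 13.2 to 13.6 CPM in KAT7KO, B cell markers at 4.15 to 5.62 and 8.55 to 9.57 CPM, and T and NK cell markers at 1.88 to 2.20 and 2.20 to 3.89 CPM. Erythroid and megakaryocyte markers were at 49.8 to 68.3 CPM in Ctrl and 36.8 to 39.4 CPM in KAT7KO, mast cell markers at 3.27 to 3.82 and 2.02 to 2.71 CPM, and dendritic cell markers at 193 to 243 and 184 to 192 CPM.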
